A study of Mus musculus with 34 samples.

Results

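Hepatic mRNA levels of 10 genes of fatty acid uptake, triglyceride synthesis and lipid droplets were followed through the first day after partial hepatectomy (PHx), the surgical removal of the left lateral and median liver lobes. The genes were picked by symbol, and all 10 were found among the 78298 genes of the count table and among the 14980 genes tested. They fall into 3 roles: *Cd36*, *Fabp1*, *Fabp5*, *Slc27a2* and *Slc27a5* serve uptake and binding, *Dgat1* and *Dgat2* make triglyceride, and *Plin2*, *Plin5* and *Cidec* coat the droplet. Bulk RNA-seq was done on livers of young adult male mice of C57/Bl6 background at 0 hours without surgery and at 6 and 24 hours after PHx, with 6, 6 and 4 WT livers and 6, 5 and 7 SIRTintKO livers. SIRTintKO mice carry floxed *Sirt1* and a Cre driven by the villin promoter, which removes *Sirt1* from gut epithelial cells while the liver keeps it, and WT mice are floxed littermates without Cre. By the study's figure legends the WT group is larger at 24 hours and smaller at 6 hours than by the labels used here. Whether a liver stands under another time point in the labels was not tested. The untreated livers carry library numbers from a series of their own, so that handling and PHx cannot be told apart in comparisons with 0 hours.

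After PHx, fatty acids released from adipose tissue reach the remnant liver, which stores them for a short time as triglyceride droplets before they are burned or built into membranes. CD36 and the SLC27 proteins bring fatty acids into the cell and the FABP proteins carry them through the cytosol. DGAT1 and DGAT2 join the last acyl chain to diacylglycerol, and perilipins and CIDE proteins sit on the droplet, where they limit lipolysis and let droplets fuse and grow.

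Counts per library ranged from 14892122 to 23480492 (median 16807340), and values are given as counts scaled to a common, TMM-normalized library size (CPM). The test was edgeR's quasi-likelihood fit over all 14980 genes. A gene is said to have risen or fallen where the Benjamini-Hochberg adjusted p was under 0.05, and is called a DEG where the absolute log2 fold change was also over 1. On the first principal component of all 34 libraries, which held 40.7% of the variance, the 24-hour livers split: WT replicates 3 and 4 scored 8.02 and 17.6 and SIRTintKO replicate 5 scored -8.10, while the other 8 lay between -95.9 and -49.7. WT replicate 3, SIRTintKO replicate 5 and WT replicate 4 carry successive library numbers among the labelled livers. Whether their handling differed was not tested. Where leaving out these 3 libraries changed a call, or moved the fold of a called change by over 1.5 times, the value without them is given too, and it rests on WT replicates 1 and 2.

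The 3 droplet coat genes rose in both genotypes at 6 hours, from 2.31-fold for *Plin5* in SIRTintKO livers to 149-fold for *Cidec* in WT livers. *Dgat2* and *Slc27a5* fell at both time points in both genotypes, by less than the DEG threshold except for *Slc27a5* in SIRTintKO livers at 24 hours. By 24 hours *Fabp1* and *Slc27a2* had fallen too, while *Plin2* and *Cidec* were still above the level of untreated livers and *Cd36* had risen in both genotypes.

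At 6 hours against 0 hours, 5 of the 10 genes rose and 2 fell in WT livers, where 37.4% of all tested genes changed. The 5 that rose were DEGs, against 15.6% of all genes. In SIRTintKO livers 4 rose and 2 fell (38.4% of all genes changed), and the 4 that rose were DEGs (16.6% of all genes). At 24 hours against 0 hours, 4 rose and 4 fell in WT livers, with 4 DEGs, where 34.1% of all genes changed and 15.7% were DEGs. In SIRTintKO livers 4 rose and 5 fell, with 6 DEGs, where 50.2% of all genes changed and 22.96% were DEGs. The median log2 fold change of the 10 genes was 0.73 and 0.36 at 6 hours and -0.20 and -0.19 at 24 hours in WT and SIRTintKO livers, against medians between 0.01 and 0.04 over all genes.

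**Figure D1:**
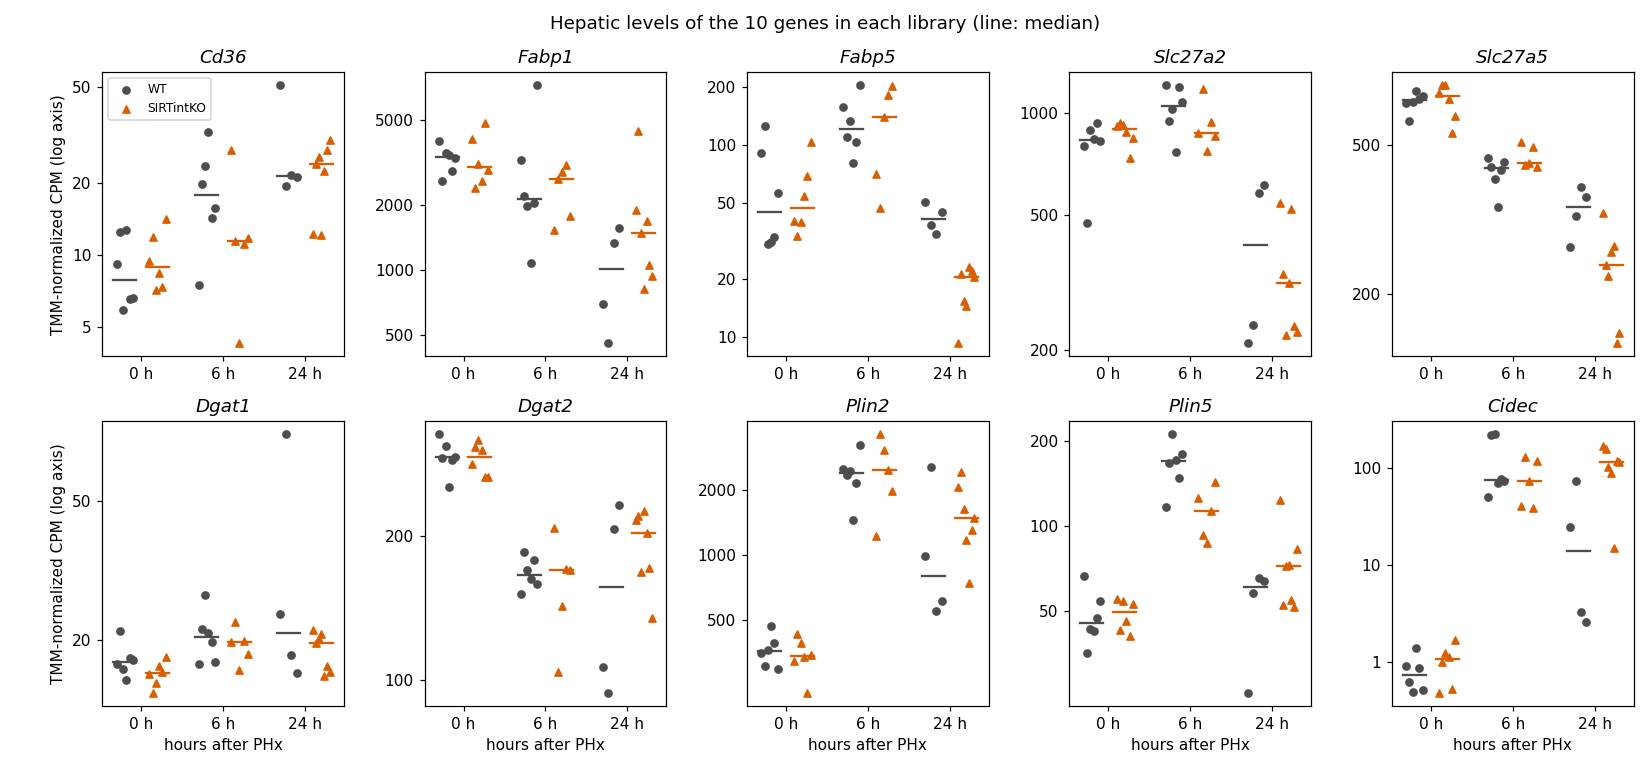
Each panel plots TMM-normalized CPM on a log axis for 1 gene, with 1 point per library by hours after PHx (grey circles, WT; orange triangles, SIRTintKO; lines, group medians). *Plin2*, *Plin5* and *Cidec* sit above all untreated livers at 6 hours, and *Fabp5* separates the genotypes at 24 hours.

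**Figure D2:**
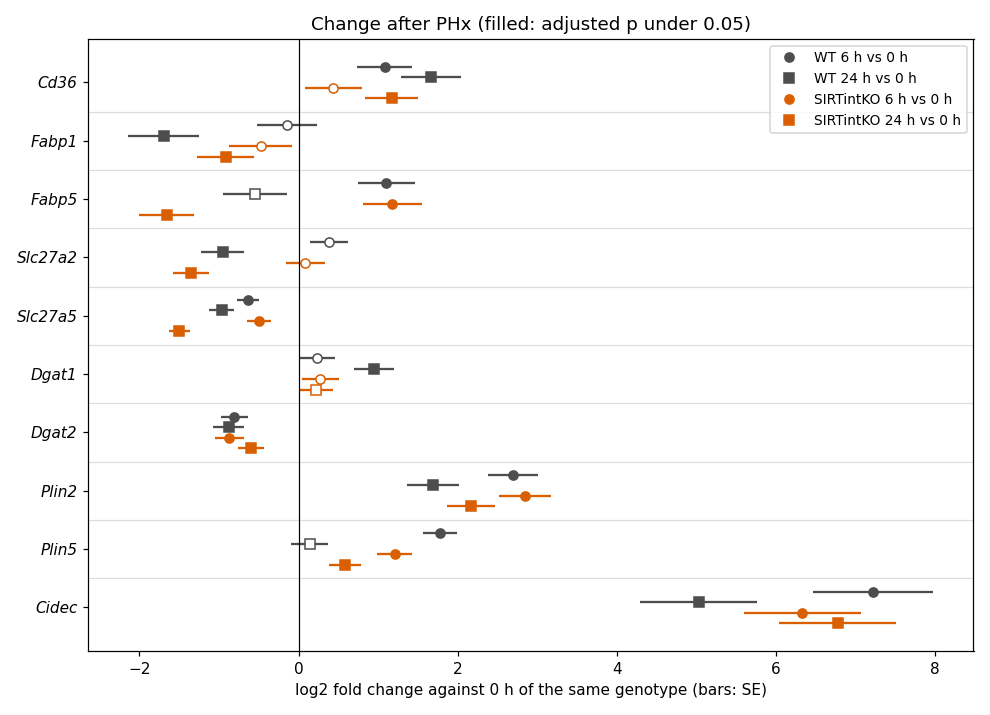
Log2 fold changes of the 10 genes against untreated livers of the same genotype, with bars of 1 SE, at 6 hours (circles) and 24 hours (squares) in WT (grey) and SIRTintKO (orange) livers. Filled symbols have an edgeR adjusted p under 0.05. *Cidec* lies between 5.03 and 7.22, far right of the other 9 genes.

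Among the genes of uptake, *Cd36* (ENSMUSG00000002944), the scavenger receptor that takes up long-chain fatty acids, was low in untreated livers, with 5.89 to 12.7 CPM in WT mice (median 7.89) and 7.17 to 14.2 CPM in SIRTintKO mice (median 8.94). At 6 hours it ran from 7.51 to 32.6 CPM in WT livers (median 17.7), and the SIRTintKO livers had 27.4, 11.4, 4.28, 11.04 and 11.8 CPM. The 4 WT livers at 24 hours had 51.0, 19.4, 21.4 and 21.2 CPM, all above every untreated WT liver, whereas the 7 SIRTintKO livers, between 12.1 and 30.2 CPM (median 23.8), overlapped their untreated group. In WT livers *Cd36* rose by 1.08 on the log2 scale at 6 hours (SE 0.346, adjusted p = 0.0139) and 1.66 at 24 hours (SE 0.375, adjusted p = 0.00113), and in SIRTintKO livers by 1.17 at 24 hours (SE 0.336, adjusted p = 0.00451). The call in WT livers at 6 hours was lost without WT 6-hour replicate 4 (0.84, adjusted p = 0.0608). At 6 hours the SIRTintKO value was 0.44 (adjusted p = 0.349), and it was -0.05 without SIRTintKO 6-hour replicate 1. That library, the highest of its group for *Cd36*, also had the highest summed level of 8 adipocyte markers among the 6-hour livers, 40.7 CPM against 0.563 to 10.3 CPM in the other SIRTintKO livers, and the part of adipocyte RNA in its value was not tested.

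*Fabp1* (ENSMUSG00000054422), the main cytosolic fatty acid carrier of hepatocytes, was the most abundant of the 10 genes per exon length in every group. Untreated livers had 2580 to 3995 CPM in WT mice (median 3366) and 2413 to 4810 CPM in SIRTintKO mice (median 3019). At 24 hours the 4 WT livers had 695, 457, 1334 and 1577 CPM, all below every untreated liver, and the SIRTintKO livers ran from 816 to 4420 CPM (median 1484) and overlapped their untreated group through replicate 2. *Fabp1* fell by 1.69 on the log2 scale in WT livers (SE 0.445, adjusted p = 0.00414) and by 0.91 in SIRTintKO livers (SE 0.361, adjusted p = 0.0349). The WT value was -2.48 without the 3 libraries that stood apart. Of 34 fits with a different library left out each time, 6 did not give the SIRTintKO call (24-hour replicates 3, 4, 6 or 7 and 0-hour replicates 1 or 5), with an adjusted p of up to 0.0830. At 6 hours *Fabp1* ranged from 1077 to 7250 CPM in WT livers (median 2131) and was 1543, 2655, 2867, 3061 and 1788 CPM in SIRTintKO livers, and its adjusted p was 0.795 in WT and 0.353 in SIRTintKO livers. The summed level of 9 hepatocyte markers moved with it, from a median of 89961 CPM in untreated to 42015 CPM in 24-hour WT livers and from 91485 to 58412 CPM in SIRTintKO livers. In bulk RNA fewer hepatocytes and less mRNA per hepatocyte cannot be told apart.

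*Fabp5* (ENSMUSG00000027533), the epidermal fatty acid-binding protein, rose at 6 hours from a median of 44.6 CPM (30.4 to 125) to 121 CPM (80.4 to 206) in WT livers and from 47.1 CPM (33.7 to 104) to 70.6, 46.7, 140, 182 and 204 CPM in SIRTintKO livers. The groups overlapped in both genotypes, and the log2 fold changes were 1.11 (SE 0.354, adjusted p = 0.0141) and 1.18 (SE 0.368, adjusted p = 0.0114). The SIRTintKO call was lost without SIRTintKO 6-hour replicate 5 (0.92, adjusted p = 0.0579). By 24 hours *Fabp5* had fallen in SIRTintKO livers to 9.21 to 23.1 CPM (median 20.5), below every untreated SIRTintKO liver, with a log2 fold change of -1.66 (SE 0.344, adjusted p = 0.000214). In WT livers it was 50.6, 38.0, 34.3 and 44.4 CPM, within the range of untreated livers (log2 fold change -0.55, adjusted p = 0.297). Processed copies of *Fabp5* resemble it in sequence, and any reads that Salmon divided between copies make its counts uncertain.

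*Slc27a2* (ENSMUSG00000027359) and *Slc27a5* (ENSMUSG00000030382) encode the very long-chain acyl-CoA synthetase FATP2 and the bile acid-CoA ligase FATP5, which also take up fatty acids in hepatocytes. *Slc27a5* went down in steps, from 580 to 698 CPM (median 657) to 342 to 462 CPM (median 433) and then to 267, 322, 385 and 362 CPM in WT livers. In SIRTintKO livers it went from 537 to 723 CPM (median 675) to 509, 440, 446, 492 and 437 CPM and then to 147 to 328 CPM (median 239). No liver after PHx overlapped the untreated group of its genotype. The log2 fold changes were -0.63 (adjusted p = 0.000638) and -0.97 (SE 0.161, adjusted p = 4.41e-05) in WT livers at 6 and 24 hours, and -0.49 (adjusted p = 0.00853) and -1.50 (SE 0.136, adjusted p = 1.49e-09) in SIRTintKO livers.

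*Slc27a2* did not pass the test at 6 hours, with 767 to 1215 CPM in WT livers (median 1055; untreated 474 to 934, median 834) and 878, 1180, 776, 945 and 858 CPM in SIRTintKO livers (untreated 738 to 937, median 898). At 24 hours it was 209, 237, 582 and 614 CPM in WT and 221 to 543 CPM (median 316) in SIRTintKO livers, and the latter lay below every untreated SIRTintKO liver. It fell by 0.95 on the log2 scale in WT livers (SE 0.273, adjusted p = 0.00769) and by 1.35 in SIRTintKO livers (SE 0.230, adjusted p = 1.90e-05). The WT call was lost without WT 24-hour replicate 1 (-0.73, adjusted p = 0.0528) or 2 (-0.77, adjusted p = 0.0533) and when the 2 groups alone were fitted (adjusted p = 0.0604). Without the 3 libraries that stood apart the WT value was -1.80 and the SIRTintKO value -1.45. *Slc27a2*, *Slc27a5*, *Fabp5* and *Dgat1* were singled out by the study from these same livers, so their direction at 24 hours is not independent evidence.

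The enzymes of the last step of triglyceride synthesis differed in level and in course. *Dgat2* (ENSMUSG00000030747), the endoplasmic reticulum and droplet enzyme that handles newly made fatty acids, had 253 to 327 CPM in untreated WT livers (median 292) and 266 to 318 CPM in untreated SIRTintKO livers (median 293). At 6 hours it was 151 to 185 CPM in WT livers (median 166) and 208, 104, 143, 171 and 170 CPM in SIRTintKO livers, and at 24 hours 107, 94.1, 207 and 232 CPM in WT and 135 to 226 CPM (median 204) in SIRTintKO livers. Every liver after PHx lay below every untreated liver of its genotype. *Dgat2* fell by 0.81 and 0.88 on the log2 scale in WT livers (adjusted p = 0.000356 and 0.000912) and by 0.87 and 0.60 in SIRTintKO livers (adjusted p = 0.000330 and 0.00284) at 6 and 24 hours. The WT livers at 24 hours split with the principal component, since replicates 1 and 2 held 107 and 94.1 CPM, and without the 3 libraries that stood apart the WT value was -1.52.

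*Dgat1* (ENSMUSG00000022555), the enzyme that re-esterifies imported fatty acids, varied little apart from 1 library. It ran from 15.3 to 21.2 CPM in untreated WT livers (median 17.2), from 14.1 to 17.8 CPM in untreated SIRTintKO livers (median 16.02), from 16.99 to 26.8 CPM at 6 hours in WT livers (median 20.3) and from 15.7 to 21.3 CPM at 24 hours in SIRTintKO livers (median 19.5). The SIRTintKO livers at 6 hours had 19.7, 22.5, 16.4, 19.8 and 18.2 CPM. The 4 WT livers at 24 hours had 23.7, 77.5, 18.1 and 16.1 CPM. The rise in WT livers at 24 hours (log2 fold change 0.95, SE 0.247, adjusted p = 0.00386) rested on replicate 2, without which it was 0.14 (adjusted p = 0.521), and it was not called when the 2 groups alone were fitted (adjusted p = 0.0909). It was 1.57 without the 3 libraries that stood apart, among which replicate 2 is not. The other changes of *Dgat1* from 0 hours had log2 fold changes between 0.22 and 0.28 and adjusted p-values between 0.373 and 0.453, but the 6-hour change in SIRTintKO livers was called when the 2 groups alone were fitted (0.29, adjusted p = 0.0288).

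Of the droplet coat genes, *Plin2* and *Cidec* had larger log2 fold changes from 0 hours than the other 8 genes at 6 and 24 hours in both genotypes. In WT livers at 24 hours *Plin2* (1.69) lay close to *Cd36* (1.66) and to the size of the fall of *Fabp1* (-1.69). *Plin2* (ENSMUSG00000028494), perilipin 2, the general coat protein of hepatocyte droplets, had 298 to 469 CPM in untreated WT livers (median 358) and 230 to 430 CPM in untreated SIRTintKO livers (median 342). At 6 hours it was 1449 to 3220 CPM in WT livers (median 2397) and 1218, 3613, 3068, 2476 and 1966 CPM in SIRTintKO livers. At 24 hours the WT livers had 993, 2550, 552 and 611 CPM and the SIRTintKO livers 745 to 2429 CPM (median 1486). All livers after PHx lay above all untreated livers. *Plin2* rose 6.46-fold and 7.19-fold at 6 hours in WT and SIRTintKO livers (adjusted p = 9.42e-08 and 8.09e-08) and 3.23-fold and 4.50-fold at 24 hours (adjusted p = 0.000241 and 1.15e-06). Without WT 24-hour replicate 2 the WT log2 fold change at 24 hours went from 1.69 to 0.98 and kept its call, and without the 3 libraries that stood apart it was 2.32.

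*Plin5* (ENSMUSG00000011305), perilipin 5, which ties droplets to mitochondria in cells that burn fat, was high at 6 hours alone in WT livers. It went from 35.4 to 66.7 CPM (median 45.3) to 117 to 212 CPM (median 170) and back to 25.6, 57.9, 65.2 and 63.7 CPM. In SIRTintKO livers it went from 40.8 to 55.3 CPM (median 49.6) to 126, 92.7, 87.2, 113 and 144 CPM and then to 51.8 to 124 CPM (median 72.4). The 6-hour livers did not overlap the untreated ones in either genotype, whereas the 24-hour livers did in both. At 6 hours *Plin5* rose with log2 fold changes of 1.78 in WT (SE 0.213, adjusted p = 1.27e-07) and 1.21 in SIRTintKO livers (SE 0.217, adjusted p = 6.30e-05). At 24 hours the value was 0.14 in WT livers (adjusted p = 0.668; -0.17 without the 3 libraries that stood apart), and 0.59 in SIRTintKO livers (SE 0.201, adjusted p = 0.0161), a call lost without SIRTintKO 24-hour replicate 1 (0.39, adjusted p = 0.0847).

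*Cidec* (ENSMUSG00000030278), which joins droplets and passes lipid from small to large ones, was close to silent in untreated livers, with 0.480 to 1.40 CPM in WT mice and 0.473 to 1.68 CPM in SIRTintKO mice, the lowest on 8 reads. At 6 hours it reached 50.8 to 226 CPM in WT livers (median 76.0) and 40.8, 131, 74.8, 39.3 and 119 CPM in SIRTintKO livers. At 24 hours the WT livers had 24.96, 74.6, 3.25 and 2.59 CPM, while the SIRTintKO livers had 15.1 to 172 CPM (median 116). The 2 lowest WT livers and the lowest SIRTintKO liver at 24 hours are the 3 libraries that stood apart on the first principal component. *Cidec* rose 149-fold and 80.5-fold at 6 hours in WT and SIRTintKO livers (adjusted p = 1.36e-08 and 1.13e-07) and 32.7-fold and 110-fold at 24 hours (adjusted p = 8.42e-06 and 2.30e-08). Without WT 24-hour replicate 2 the WT log2 fold change at 24 hours went from 5.03 to 3.67 and kept its call, and without the 3 libraries that stood apart it was 5.99. Adipocytes also express *Cidec*. Of 8 adipocyte markers 4 were tested. In SIRTintKO livers 3 rose and 1 fell at 6 and at 24 hours, while in WT livers 0 and 1 rose and 1 fell at each time. The marker that rose in WT livers was *Cidea*, which is also counted with the other droplet proteins below. *Adrb3* had a mean of 9.997 CPM in untreated WT livers and 1.54 and 1.27 CPM at 6 and 24 hours. In SIRTintKO livers its means were 10.97, 1.10 and 0.564 CPM. The adipocyte marker *Adipoq* was at 0 in 20 of the 34 libraries and at most at 5.32 CPM, in SIRTintKO 6-hour replicate 1, whose *Cidec* level of 40.8 CPM was the next to lowest of its group. In SIRTintKO 24-hour replicate 3 the summed level of the 8 markers was 43.3 CPM, with *Cidec* at 103 CPM within the range of the other 6 livers. In WT 24-hour livers the sum was 1.37 to 2.89 CPM, with 5 of the 8 markers at 0 in all 4. The part of adipocyte RNA in the values of *Cidec*, and of *Fabp4* and *Plin4* below, was not tested.

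RefSeq promoters (250 bases before to 50 after a transcript start, build GRCm38.p6) were at hand for 6 of the 10 genes and are printed for the 3 coat genes, which rose together, and for *Fabp1*, which fell. They were searched on both strands for the direct repeat AGGTCANAGGTCA (DR1), the textbook element of PPAR and RXR, and the best match in each window is in capitals. The counts were made on GRCm39, and no coordinate was carried over between the builds.

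Fabp1, chr6:71199629-71199928, plus strand: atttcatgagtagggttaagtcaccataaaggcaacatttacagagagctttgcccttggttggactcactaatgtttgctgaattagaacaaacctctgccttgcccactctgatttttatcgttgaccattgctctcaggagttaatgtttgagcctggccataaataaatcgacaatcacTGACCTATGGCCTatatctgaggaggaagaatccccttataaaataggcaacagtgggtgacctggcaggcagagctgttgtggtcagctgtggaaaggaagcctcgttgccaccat
Plin2, chr4:86670010-86670309, minus strand: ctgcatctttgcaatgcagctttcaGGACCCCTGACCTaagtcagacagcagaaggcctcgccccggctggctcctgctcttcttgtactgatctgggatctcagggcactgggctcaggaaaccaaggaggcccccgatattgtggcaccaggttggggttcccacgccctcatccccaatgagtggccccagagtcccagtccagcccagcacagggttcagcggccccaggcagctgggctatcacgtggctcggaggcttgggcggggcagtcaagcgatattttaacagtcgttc
Plin5, chr17:56117249-56117548, minus strand: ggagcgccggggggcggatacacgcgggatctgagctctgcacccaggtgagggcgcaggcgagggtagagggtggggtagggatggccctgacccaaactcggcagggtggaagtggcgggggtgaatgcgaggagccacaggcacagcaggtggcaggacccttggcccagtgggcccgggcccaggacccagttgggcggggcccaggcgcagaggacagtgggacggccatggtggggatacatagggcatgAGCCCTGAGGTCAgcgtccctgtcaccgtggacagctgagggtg
Cidec, chr6:113435711-113436010, minus strand: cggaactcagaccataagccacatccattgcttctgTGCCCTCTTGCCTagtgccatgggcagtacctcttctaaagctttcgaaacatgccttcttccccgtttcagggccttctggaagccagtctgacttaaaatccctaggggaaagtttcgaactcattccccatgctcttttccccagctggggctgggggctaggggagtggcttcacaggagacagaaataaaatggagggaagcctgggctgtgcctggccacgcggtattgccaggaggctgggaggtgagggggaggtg

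The *Fabp1* window holds a DR1 with 1 mismatch, at positions -67 to -55 from the start, and 0.554% of 32851 promoters of this length hold one as close. The best match in *Plin2*, at positions -225 to -213, has 2 mismatches (3.86% of promoters have at most 2), and so has that of *Cd36*, which is not shown. *Plin5*, *Slc27a2* and this *Cidec* window have 3 mismatches, a level that 24.6% of promoters reach. The match printed for *Plin5* lies after the start, at positions 6 to 18. Another *Plin5* window, not shown, also has 3 mismatches. Another *Cidec* window, not shown, has 4, a level that 79.8% of promoters reach. The core AGGTCA without mismatch stands in windows of all 6 genes but *Cidec*, and in 16.3% of all promoters. These are matches of letters and say nothing of binding.

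Between the genotypes, none of the 10 genes passed the test before surgery or at 6 hours. At 0 hours edgeR called 0 of the 10 (0% of all genes), DESeq2 called 0, and 0 had an unadjusted p under 0.05. At 6 hours edgeR again called 0 of the 10 (0% of all genes), and DESeq2 called 0 of the 10. *Plin5* alone of the 10 had an unadjusted p under 0.05 in edgeR there, beside 6.52% of all genes. Its log2 fold change between SIRTintKO and WT livers was -0.56 (SE 0.218, adjusted p = 0.736).

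At 24 hours 3 of the 10 genes were lower in SIRTintKO than in WT livers and 0 were higher, where 5.81% of all genes changed and 2.68% were DEGs. The median log2 fold change was 0.00 over the 10 genes and -0.02 over all genes. *Fabp5*, the only DEG among the 10, was lower in all 7 SIRTintKO livers (9.21 to 23.1 CPM) than in all 4 WT livers (34.3 to 50.6 CPM), with a log2 fold change of -1.22 (SE 0.374, adjusted p = 0.0483). The call stands near the threshold, since the adjusted p was between 0.0293 and 0.0856 when each of the 34 libraries was left out in turn and passed in 19 of these fits. The 15 fits without a call left out 9 libraries of 24 hours (WT replicates 1, 2 and 4 and SIRTintKO replicates 1, 2, 3, 4, 6 and 7), 3 of 6 hours and 3 of 0 hours, and in all of them the log2 fold change stayed between -1.32 and -1.12. *Slc27a5* was 147 to 328 CPM in SIRTintKO livers and 267 to 385 CPM in WT livers, which overlap, with a log2 fold change of -0.53 (SE 0.149, adjusted p = 0.0336). Its call was lost without WT 24-hour replicates 2, 3 or 4 or SIRTintKO 24-hour replicates 3, 6 or 7 (adjusted p up to 0.0796) and without the 3 libraries that stood apart (-0.37, adjusted p = 0.169). *Dgat1* had a log2 fold change of -0.86 (SE 0.238, adjusted p = 0.0295), which became -0.05 (adjusted p = 0.847) without WT 24-hour replicate 2, and its call was also lost without SIRTintKO 24-hour replicate 6 (adjusted p = 0.0598) or 7 (adjusted p = 0.0509). The count of 3 rose to 4 without SIRTintKO 24-hour replicate 5, fell to 0 without SIRTintKO 24-hour replicate 6 or 7 and fell to 1 without SIRTintKO replicate 3 or WT replicate 4. Without WT 24-hour replicate 2 all 3 lost their calls (adjusted p = 0.0676 for *Fabp5*, 0.0518 for *Slc27a5* and 0.847 for *Dgat1*). *Plin2* and *Cidec* were then called higher in SIRTintKO livers instead, with the values given below. When the 2 groups alone were fitted the count was 0, with adjusted p-values of 0.256, 0.340 and 0.344 for *Fabp5*, *Slc27a5* and *Dgat1*.

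The coat genes pointed the other way at 24 hours without passing the test. *Cidec* was higher in SIRTintKO livers by a log2 fold change of 2.07 (SE 0.650) with an adjusted p of 0.0527 in edgeR and 0.0220 in DESeq2, and the groups overlapped. Leaving out WT 24-hour replicate 2 gave 3.43 (adjusted p = 0.0140), leaving out SIRTintKO 24-hour replicate 5 gave 2.26 (adjusted p = 0.0147), and leaving out the 3 libraries that stood apart gave 1.35 (adjusted p = 0.0799). *Slc27a2* had a log2 fold change of -0.26 (adjusted p = 0.5682), which was 0.50 without these 3 libraries. *Plin2* had a log2 fold change of 0.39 (adjusted p = 0.490), which was -0.07 without these 3 libraries, and 1.10 without WT 24-hour replicate 2 (adjusted p = 0.0393). Without the 3 libraries, 5 of the 10 genes passed the test, and these values rest on 2 WT livers. *Dgat1* at -1.40 (adjusted p = 9.33e-05) and *Fabp5* at -1.35 (adjusted p = 0.04999) were lower in SIRTintKO livers. *Dgat2* at 0.93 (adjusted p = 0.00158), *Fabp1* at 1.64 (adjusted p = 0.0447) and *Plin5* at 0.87 (adjusted p = 0.0408) were higher. The share of all genes that passed in this fit is not given here, so the count cannot be read as particular to these genes. Of 7 tested neutrophil and monocyte markers 2 were higher in SIRTintKO livers and 0 lower, where 5.81% of all genes changed. The summed level of 8 such markers was 25.9 to 959 CPM (median 113) in SIRTintKO and 9.66 to 117 CPM (median 56.4) in WT livers. These ranges overlapped, and the highest sum, in SIRTintKO replicate 2, was followed by 220 CPM in replicate 3. The part of neutrophils and monocytes in the values of the 10 genes was not tested.

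**Figure D3:**
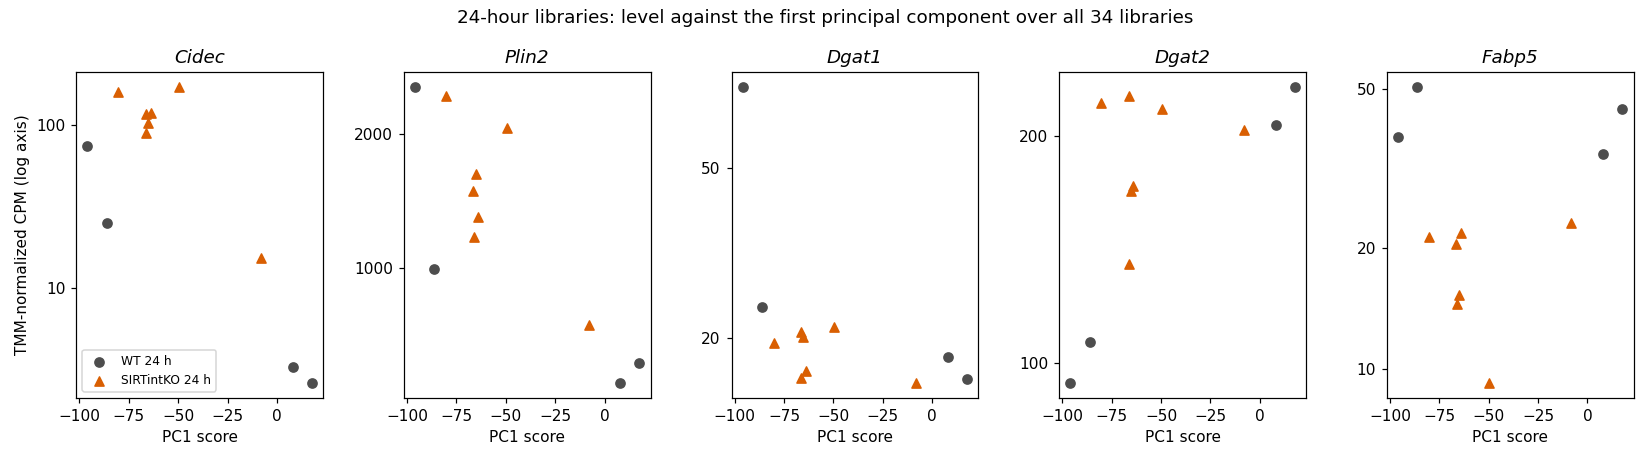
TMM-normalized CPM (log axis) of 5 genes in the 24-hour livers against the score of each library on the first principal component of all 34 libraries (grey circles, WT; orange triangles, SIRTintKO). *Cidec* is lowest in the 3 libraries to the right, with 3.25 and 2.59 CPM in WT and 15.1 CPM in SIRTintKO livers, and *Fabp5* separates the genotypes at both ends.

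The interaction tests whether the change from 0 hours differed between genotypes. At 6 hours it passed for 0 of the 10 genes in edgeR (0% of all genes) and for 0 in DESeq2. In edgeR 0 of the 10 had an unadjusted p under 0.05 for it, beside 3.05% of all genes. At 24 hours it passed for 0 of the 10 in edgeR and in DESeq2, where edgeR called 0.00668% of all genes. *Slc27a5* (-0.53), *Fabp5* (-1.11) and *Dgat1* (-0.73) had unadjusted p-values of 0.0143, 0.0395 and 0.0350 (adjusted p = 0.274, 0.364 and 0.351). An unadjusted p under 0.05 was reached in edgeR by 12.7% of all genes. Without the 3 libraries that stood apart, the interaction passed for *Dgat1* (-1.27, adjusted p = 0.00739) and *Dgat2* (0.94, adjusted p = 0.0143). The share of all genes that passed in that fit is not given here.

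From 6 to 24 hours, 6 of the 10 genes fell and 1 rose in WT livers (16.5% of all genes changed, 7.16% were DEGs), and 4 fell and 0 rose in SIRTintKO livers (27.6% changed, 10.6% DEGs). There were 5 and 3 DEGs among the 10, and the median log2 fold change was -1.17 and -0.53, against 0.01 and -0.01 over all genes. *Fabp5* fell in WT (log2 fold change -1.65, adjusted p = 0.00660) and SIRTintKO livers (-2.84, adjusted p = 2.33e-06), and so did *Slc27a2* (-1.34 and -1.44, adjusted p = 0.00135 and 6.63e-05) and *Plin5* (-1.64 and -0.62, adjusted p = 3.83e-05 and 0.0243). *Slc27a5* had a log2 fold change of -1.003 in SIRTintKO livers (adjusted p = 8.41e-06). The WT calls of *Fabp1* (-1.55, adjusted p = 0.0156), *Plin2* (-0.9996, adjusted p = 0.0420), *Cidec* (-2.19, adjusted p = 0.0219) and *Dgat1* (0.72, adjusted p = 0.0433) and the SIRTintKO call of *Plin5* were less firm. All 5 were lost when the 2 groups alone were fitted. Among the fits with a library left out, *Fabp1* lost its call without WT 24-hour replicates 1 or 2 or WT 6-hour replicate 6 (adjusted p up to 0.0686), *Cidec* without WT 24-hour replicates 1, 3 or 4 or WT 6-hour replicates 2 or 3 (up to 0.0696), and *Plin5* without SIRTintKO 24-hour replicates 2 or 6 or SIRTintKO 6-hour replicates 1, 4 or 5 (up to 0.0971). *Dgat1* lost it without WT 6-hour replicates 1, 2, 4, 5 or 6 (up to 0.0833) and without WT 24-hour replicate 2, where it turned to -0.08 (adjusted p = 0.765), and *Plin2* in 14 of 34 fits, 8 of them without a WT library of 6 or 24 hours (up to 0.151). The WT count of 7 went to 4 without WT 24-hour replicate 1 or WT 6-hour replicate 2 or 6. Without the 3 libraries that stood apart, *Plin2* (-0.39, adjusted p = 0.3996) and *Cidec* (-1.26, adjusted p = 0.0686) were no longer called in WT livers, *Dgat2* was (-0.73, adjusted p = 0.00357), and *Fabp1*, *Slc27a2* and *Dgat1* had values of -2.35, -2.21 and 1.32.

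Levels between genes were compared per kilobase of exon (RPKM, with union exon lengths of GENCODE vM21). In untreated WT livers the order was *Fabp1* (5933 ± 889 RPKM, SD, n = 6), *Slc27a5* (267 ± 16.4), *Slc27a2* (212 ± 43.9), *Plin2* (104 ± 17.8), *Dgat2* (95.3 ± 7.90), *Plin5* (23.1 ± 5.24), *Fabp5* (17.1 ± 10.96), *Dgat1* (5.73 ± 0.650), *Cd36* (2.48 ± 0.856) and *Cidec* (0.427 ± 0.185). *Plin2* and *Dgat2*, and *Plin5* and *Fabp5*, lay within 1 SD of each other. The order depends on the union lengths, which were 3567 bases for *Fabp5* and 553 bases for *Fabp1*. Which transcripts the livers use was not determined, so the place of *Fabp5* and its ratio to *Fabp1* are uncertain. At 6 hours in WT livers *Plin2* stood at 670 ± 163 RPKM, above *Slc27a2* (277 ± 44.6) and *Slc27a5* (172 ± 17.7), and *Cidec* at 64.8 ± 43.5 RPKM was in the range of *Plin5* (79.5 ± 15.3) and *Dgat2* (54.4 ± 4.06). Within single libraries, *Cidec* was 0.395% of *Plin2* per exon length at the median of untreated WT livers, 8.07% at 6 hours and 2.94% at 24 hours, and in SIRTintKO livers 0.514%, 6.33% and 14.5%. The 24-hour ranges, 0.802% to 5.53% in WT and 3.84% to 17.2% in SIRTintKO livers, overlapped. *Dgat1* went from 6.06% of *Dgat2* (5.25% to 7.33%) to 11.5% (10.96% to 15.97%) at 6 hours in WT livers and from 5.63% (4.62% to 6.75%) to 11.6% (9.57% to 21.7%) in SIRTintKO livers, without overlap in either genotype.

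**Figure D4:**
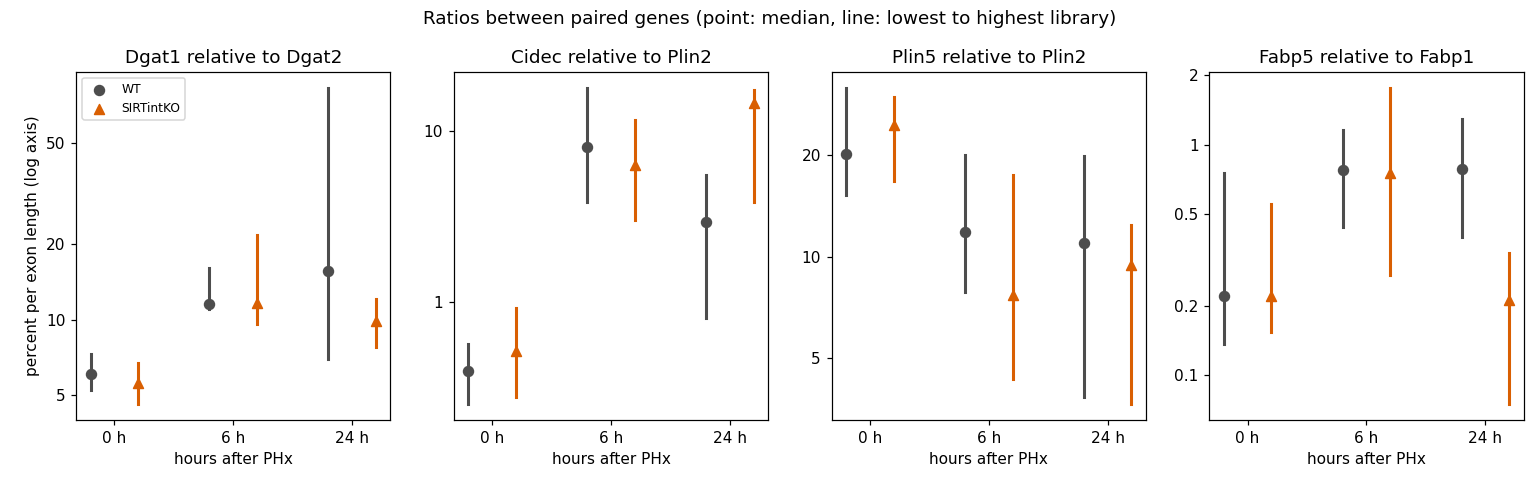
Level of the first gene as a percentage of the second per exon length (log axes) by hours after PHx, with the median (grey circles, WT; orange triangles, SIRTintKO) and a line from the lowest to the highest library. *Dgat1* relative to *Dgat2* is 5.25% to 7.33% in untreated WT livers and 10.96% to 15.97% at 6 hours, and *Cidec* relative to *Plin2* is highest at 24 hours in SIRTintKO livers, at a median of 14.5%.

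Other genes of the pathway moved in both directions. The shares of all genes that changed, against which the counts of each list are to be read, were 37.4% in WT and 38.4% in SIRTintKO livers at 6 hours and 34.1% and 50.2% at 24 hours. Of 19 tested genes of uptake, binding and activation, 2 rose and 5 fell in WT and 2 rose and 3 fell in SIRTintKO livers at 6 hours, and 3 rose and 6 fell, and 5 rose and 4 fell, at 24 hours. Endothelial lipase *Lipg* rose at 6 hours, with log2 fold changes of 2.72 (WT) and 2.76 (SIRTintKO) (adjusted p = 2.04e-07 and 3.81e-07) and the adipocyte and macrophage carrier *Fabp4* by 2.53 and 2.30 (adjusted p = 0.000175 and 0.000697). *Angptl8*, an inhibitor of lipoprotein lipase, fell (-2.49 and -3.01; adjusted p = 0.00156 and 0.000584). At 24 hours *Acsl1*, the main acyl-CoA synthetase of the liver, fell (-1.60 and -2.68; adjusted p = 0.00166 and 1.00e-07). Between genotypes at 24 hours, *Lipg* (2.05, adjusted p = 0.00517) and the intestinal-type carrier *Fabp2* (1.46, adjusted p = 0.0280) were higher in SIRTintKO livers.

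Of 13 tested genes of the earlier steps of glycerolipid synthesis, 3 rose and 3 fell in WT and 4 rose and 3 fell in SIRTintKO livers at 6 hours, and 3 rose and 3 fell, and 4 rose and 4 fell, at 24 hours, beside 37.4%, 38.4%, 34.1% and 50.2% of all genes. *Gpat3*, which adds the first acyl chain to glycerol-3-phosphate, rose at 6 hours from a mean of 2.12 CPM (1.54 to 2.76) to 31.3 CPM (23.1 to 42.9) among WT livers, and from 2.26 CPM (1.99 to 2.98) to 36.1 CPM (27.3 to 44.7) among SIRTintKO livers. These are log2 fold changes of 3.88 and 4.00 (edgeR adjusted p = 4.51e-13 and 4.29e-13), and at 24 hours they were 2.94 and 3.07. The mitochondrial enzyme of the same step, *Gpam*, fell in WT livers at 6 hours by 1.04 on the log2 scale (adjusted p = 0.000548). *Lpin1*, the phosphatidate phosphatase before the DGAT step, fell at 24 hours (-1.98 and -2.09; adjusted p = 5.73e-05 and 5.06e-07), and *Lpin2* of the same family was higher in SIRTintKO than in WT livers then (1.04, adjusted p = 0.0416).

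Of 15 other droplet proteins, 5 rose and 4 fell in WT and 6 rose and 3 fell in SIRTintKO livers at 6 hours, and 5 rose and 4 fell, and 5 rose and 5 fell, at 24 hours, beside 37.4%, 38.4%, 34.1% and 50.2% of all genes. *Plin4*, a perilipin of large fat stores, rose at 6 hours by 2.76 and 2.82 (adjusted p = 0.000116 and 0.000156). *Hilpda*, a hypoxia-induced inhibitor of adipose triglyceride lipase (ATGL), rose by 2.00 and 2.59 at 6 hours (adjusted p = 0.00676 and 0.00123) and by 5.03 and 3.97 at 24 hours (adjusted p = 1.29e-06 and 3.74e-06), when WT livers ranged from 4.28 to 206 CPM. *Cidea*, the nearest relative of *Cidec* in this list, rose at 24 hours in WT (adjusted p = 0.00108) and SIRTintKO livers (adjusted p = 0.000558) and at 6 hours in SIRTintKO livers (adjusted p = 0.00475), from at most 0.0663 CPM in any untreated liver to at most 2.15 CPM in any 24-hour liver. Among 8 lipolysis genes, 3 rose and 4 fell in WT and 2 rose and 3 fell in SIRTintKO livers at 6 hours, and 0 rose and 2 fell, and 2 rose and 3 fell, at 24 hours, beside the same shares of all genes. *Pnpla2*, which encodes ATGL, rose at 6 hours by 1.65 and 1.37 (adjusted p = 1.57e-07 and 4.99e-06), and the carboxylesterase *Ces1d* fell at 6 hours (-2.76 and -1.99; adjusted p = 0.000861 and 0.0157) and 24 hours (-3.62 and -4.60; adjusted p = 0.000687 and 1.16e-06).

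Of 10 transcriptional regulators, 3 rose and 2 fell in WT and 2 rose and 2 fell in SIRTintKO livers at 6 hours, and 0 changed in WT while 1 rose and 3 fell in SIRTintKO livers at 24 hours, beside 37.4%, 38.4%, 34.1% and 50.2% of all genes. *Ppargc1a*, a coactivator of fat oxidation genes, rose in WT livers at 6 hours by 1.41 (adjusted p = 0.00348). *Cebpa*, a factor of hepatocyte differentiation, fell in SIRTintKO livers by 1.09 at 6 hours (adjusted p = 0.00528) and by 1.91 at 24 hours (adjusted p = 2.23e-06), and was lower than in WT livers at 24 hours (-1.37, adjusted p = 0.0103).

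The genes whose log2 CPM followed each of the 10 most closely over the 34 libraries were named by Pearson's r as a description, since all libraries share the shift from 0 hours to the livers after PHx. For *Cidec* they were *Cgref1*, *Enc1* and *Mfsd2a* (r = 0.97 each) and for *Plin2* *Ddx28*, *Enc1* and *Mmadhc* (0.96 each), so that *Enc1* stood in both lists. *Plin5* was nearest to *Atl2* (0.93), *Slc22a5* and *Cpt1a* (0.90 each), of which the last pair encode the carnitine transporter and the carnitine acyltransferase of mitochondrial fatty acid import. *Slc27a5* was nearest to *Inhca*, *Ugt2a3* and *Phyh* (0.96 to 0.97), *Slc27a2* to *Dhrs4*, *Glul* and *Pdp2* (0.94 to 0.96), *Dgat2* to *Sec14l2*, *Bco2* and *Chac2* (0.90 to 0.91) and *Fabp1* to *B2m*, *C8g* and *Gabarapl2* (0.88 to 0.91). The closest genes had lower r for *Cd36* (0.85, *Pfkp*), *Dgat1* (0.88, *Acd*) and *Fabp5* (0.82, *Dmtf1*).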

How the data were processed

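Livers of WT and SIRTintKO mice at 0, 6 and 24 hours were grouped by the labels of the 34 libraries, and 1 column of the table that matched no library was not used. By the study's methods, stranded poly(A) libraries were read on a NovaSeq X sequencer and processed with nf-core/rnaseq, and the submitters' processing notes name STAR, Salmon and GRCm39. The table deposited by the authors holds expected counts from Salmon, which are not normalized. Of these values 4.97% had a fractional part, and all were rounded here. The letter x was in 0 of the table's symbols, and 1255 symbols were restored by gene identifier from GENCODE vM21, none of them of the 10 genes. In edgeR 4.0.16 (R 4.3.3), libraries were scaled by TMM, 14980 genes were kept by filterByExpr, and all libraries were fitted with 1 mean for each of the 6 groups with the quasi-likelihood test (common biological coefficient of variation 0.302). Adjusted p-values are over all genes. Log2 CPM for principal components and likeness carries a prior count of 2, and likeness was taken over genes with a mean of at least 1 CPM.

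The genes and lists were chosen with earlier results of these data known. From each other list the text names at most the 3 DEGs with the largest absolute log2 fold change per genotype and comparison, of the changes at 6 and 24 hours from 0 hours and between genotypes at 24 hours. On simulated counts (14562 genes), the edgeR step called 65% and 98% of genes with a true absolute log2 fold change of 1 and 2 for SIRTintKO 24 against 0 hours, 59% and 95% between genotypes at 24 hours, and 36% and 88% for the interaction. The simulation changed 100 genes of each size in the SIRTintKO 24-hour group alone. It held no split among the 24-hour livers, so these shares need not hold for the real livers. Alternatives were DESeq2 1.42.0, its size factors used in edgeR, no filter beyond 1 count per gene, the compared groups alone, the DEG rule, a replicate block and leaving out each library, and, added after the data were seen, leaving out the 3 libraries that stood apart. No libraries of a group were alike within counting noise. The labels do not say whether animals share a litter or day, so p-values measure the spread between these livers. That spread is estimated per gene over all 6 groups, also where only 2 groups are compared. For *Dgat1* the SD was 29.3 CPM in WT livers at 24 hours and 1.31 to 3.59 CPM in the other groups.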

Additional observations from a re-analysis of the deposited data

Results flagged for a closer look

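Of the 60 groups of libraries examined for the 10 genes (1 gene in 1 genotype and time point), 5 held a library far from the others by Dixon's gap test, and chance alone gives about 1 in 20. *Cd36* was 51.0 CPM in WT 24-hour replicate 1 against 19.4 to 21.4 CPM in the other 3 livers. *Dgat1* was 77.5 CPM in WT 24-hour replicate 2 against 16.1 to 23.7 CPM. *Fabp1* was 7250 CPM in WT 6-hour replicate 6 against 1077 to 3260 CPM in the other 5, and 4420 CPM in SIRTintKO 24-hour replicate 2 against 816 to 1904 CPM in the other 6. *Slc27a2* was 474 CPM in WT 0-hour replicate 2 against 803 to 934 CPM in the other 5. Their part in each result is given where leaving the library out changed a call.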

How the results depend on the processing

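The number of the 10 genes that changed stayed within 1.5 times under DESeq2 and under DESeq2's size factors in all 11 comparisons. Between genotypes at 24 hours the count of 3 became 1 with no filter beyond 1 count per gene, 0 with the 2 groups alone, 5 without the 3 libraries that stood apart, and 1 by the DEG rule, and it ran from 0 to 4 over the fits that each left out 1 library. In WT livers the count of 8 at 24 against 0 hours became 4 by the DEG rule, the count of 7 at 24 against 6 hours became 3 with the 2 groups alone and ran from 4 to 7 over the fits that each left out 1 library, and the interaction at 24 hours went from 0 to 2 without the 3 libraries. Shares of all genes are given in this text for the main fit alone.

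Libraries of the same number in different groups did not deviate together (median r of -0.004 over 76 pairs, from -0.31 to 0.22, against 0.006 for other numbers). No pairing by number was seen, but this cannot exclude litters or days shared between livers of other numbers. With the replicate number as a block, the count between genotypes at 24 hours was 1, *Cidec* (2.55, adjusted p = 0.0489), and 68 of 75 log2 fold changes followed one by one kept direction and call.

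Without the 3 libraries 4 log2 fold changes turned sign: *Plin5* in WT livers at 24 hours (-0.17), *Slc27a2* (0.50) and *Plin2* (-0.0677) between genotypes, and *Slc27a2* in the interaction (0.36). Leaving out 1 library turned 6: *Fabp1* (-0.63 to 0.0039) in WT and *Cd36* (-0.0498 to 0.664) and *Slc27a2* (-0.0452 to 0.145) in SIRTintKO livers at 6 hours, *Dgat1* in WT livers at 24 against 6 hours (-0.0796 to 0.963) and in the 24-hour interaction (-0.974 to 0.0794), and *Cd36* between genotypes at 24 hours (-0.509 to 0.0673). Of 44 called values, 30 kept their call in all 34 such fits; the cause of the other changes was not tested. With 4 WT livers at 24 hours, 2 of them apart, differences between genotypes below a log2 fold change of 1 were often not detectable.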
